A study of Mus musculus with 17 samples.

Results

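Tnfaip3 encodes A20, an enzyme that edits ubiquitin chains and is a standard brake on the transcription factor NF-kB. It is described here as 1 row of the 47643 rows of a gene count table. The row was chosen by its own library-scaled counts in these same 17 libraries, so those levels and the differences between groups are given as a description, with no test.

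A20 removes and remodels the ubiquitin chains on which receptors of the tumour necrosis factor, Toll-like and antigen receptor families build signalling complexes, and so limits activation of the kinase that releases NF-kB. Its own gene is a target of NF-kB, which closes a negative feedback loop. In regulatory T cells (Tregs), which restrain other T cells and are marked by the transcription factor Foxp3, NF-kB acts in development and in the response to activation.

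RNA was sequenced from GFP+ Tregs sorted from the spleens of NOD mice, a strain prone to autoimmune diabetes, and every group carried the Foxp3-GFP reporter used for the sort. Nfkbid codes for an IkB protein of the nucleus that binds NF-kB subunits and adjusts their activity, and the study compared mice without it and mice with added Nfkbid with controls. The control group (NOD.Foxp3-GFP) had 6 libraries, each from a pool of 2 samples. The knockout group (NOD-Nfkbid-KO.Foxp3-GFP) had 5 libraries, each also from a pool of 2, and the transgenic group (NOD-60A.Foxp3-GFP) had 6 libraries of 1 sample each, so transgenic libraries also differed from the others in not being pooled. Age, sex and the promoter of the transgene are not given in the sources used here. The library names list different samples for each library without saying which animal each came from, so errors cover the spread between these libraries.

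In the annotation of mouse genome build GRCm38, Tnfaip3 (ENSMUSG00000019850) lies on the minus strand of chromosome 10, from 19000910 to 19015657, with 9 merged exons and 7226 exon bases. NF-kB is known to act on the promoter of this gene, so the 137 bases directly before the RefSeq start of transcription are shown here, on the minus strand at chr10:19015411-19015547 (RefSeq, GRCm38.p6). The annotations differ on where the gene starts: the one used for the exons holds a transcript that begins at 19015657, so by it this window lies inside the gene, between exons. Capitals mark the matches to GGAANTNCC, a form of the kappaB element, searched on both strands.

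Tnfaip3 upstream: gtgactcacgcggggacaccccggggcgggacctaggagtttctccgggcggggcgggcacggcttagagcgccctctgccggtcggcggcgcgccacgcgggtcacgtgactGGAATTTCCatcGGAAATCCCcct

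The matches number 2 and do not overlap, GGAATTTCC at 24 to 16 and GGAAATCCC at 12 to 4 bases before the start. The motif was chosen after this sequence had been read. Of 32851 windows of the same length and place in the RefSeq table, 2.48% held at least 1 match and 0.0944% at least 2. These letters are a description of the window, and nothing in these libraries measured binding there.

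How the Tnfaip3 row can be read depends on the table, in which many rows seem to hold reads from elsewhere than the named gene. Rows of genes that nearly all cells transcribe were empty or almost so, with 0 counts for B2m, 0 to 7 for Actb and 0 to 2 for Eef1a1, and Nfkbia, the classical feedback IkB, had 0 to 1. The exons of 21424 protein-coding rows were shifted along their chromosomes, by more the farther they lie from its start, and counts were compared with the annotated exon bases beneath. Spearman's rho across rows, averaged over 20 chromosomes, peaked at a shift of 0.45 kb per Mb. It was 0.505 there, 0.398 without a move and 0.332 at the mirrored slope, among 37 slopes tried. At that slope the Tnfaip3 row moves by 8.55 kb, and 560 of its exon bases then lie on other Tnfaip3 exons and 0 on any other gene. Moves of up to 14 kb in either direction left at least 263 bases on Tnfaip3 exons, and none of 129 moves placed a base on another gene. The row is therefore read below as counts of Tnfaip3, possibly of only a stretch of its transcript, so its level cannot be compared with the levels of other genes. The raw counts of neighbouring rows, given next, show only how many reads were counted nearby.

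Few reads were counted in the rows around Tnfaip3. The next annotated genes lie 113.9 and 70.9 kb away, and the table has no other row within 100 kb. Perp and Olig3, the nearest rows on either side, had 0 counts in all 17 libraries. The nearest rows that averaged 10 or more counts were Nhsl1, 467.0 kb away with 14 to 36 counts, and Ifngr1, a chain of the interferon gamma receptor, 576.3 kb away with 5 to 96 counts. Tnfaip3 held 354 to 2947 counts.

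**Figure D1:**
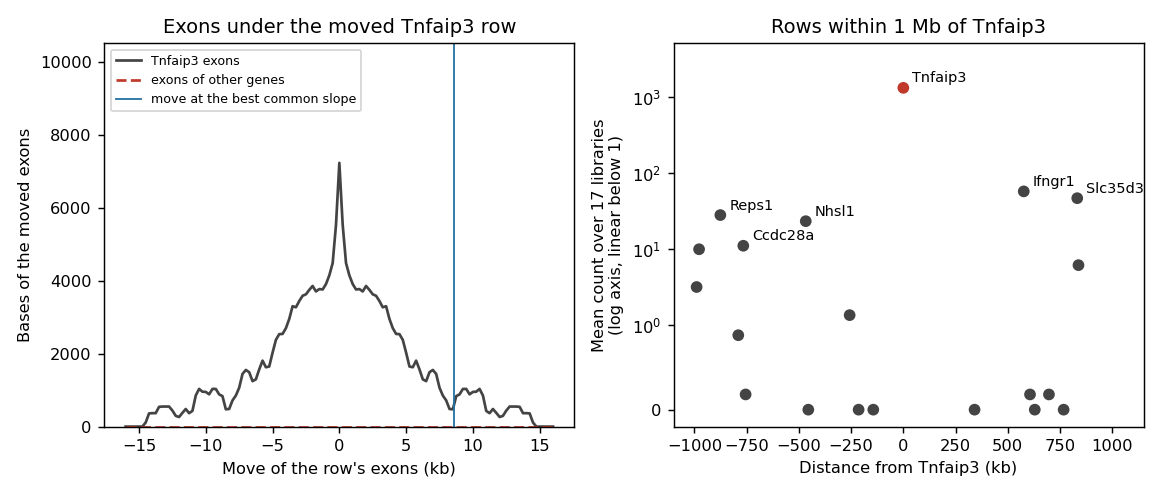
Left, bases of the Tnfaip3 row's exons (y axis) that lie on Tnfaip3 exons (solid) or on exons of other genes (dashed, at 0 throughout) after a move along the chromosome (x axis, kb), with the move at the best common slope, 8.55 kb, as a vertical line. Right, mean count over 17 libraries (y axis, logarithmic above 1) of rows by distance from Tnfaip3 (x axis, kb), with Tnfaip3 in red and the rows that averaged 10 or more counts named. These are counts per row, not levels of genes.

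Library totals ran from 3133388 to 4726615 counts, and 3 counts corresponded to 0.623 to 1.04 CPM, the count scaled to library size with TMM factors. The error from counting alone was 1.84 to 5.31% for Tnfaip3, well under the differences between libraries given next. Foxp3 held 258 to 370 CPM over all libraries and was called in no comparison, but by the rule used here its row is not tied to its gene. The Nfkbid row (chromosome 7, 30421732 to 30428746) is not tied either and had only 8 to 33 counts, so it does not check the genotype labels.

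In control Tregs, Tnfaip3 was at 312.1, 402.9, 723.1, 820.2, 867.7 and 430.6 CPM in replicates 1 to 6. Replicates 3, 4 and 5 lay well above the other 3, with no value between 430.6 and 723.1. In transgenic Tregs it was at 122.3, 154.6, 239.1, 192.3, 258.4 and 295.9 CPM in replicates 1 to 6. The highest transgenic library, at 295.9 CPM, was below the lowest control library, at 312.1 CPM, so these groups did not overlap. The share of all rows that separate these groups was not counted, so this only describes the chosen row. In knockout Tregs it was at 449.9, 116.9, 204.1, 518.5 and 176.8 CPM in replicates 1 to 5. Knockout replicates 1 and 4 lay within the control range, replicates 3 and 5 within the transgenic range, and replicate 2 below every other library of the study.

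**Figure D2:**
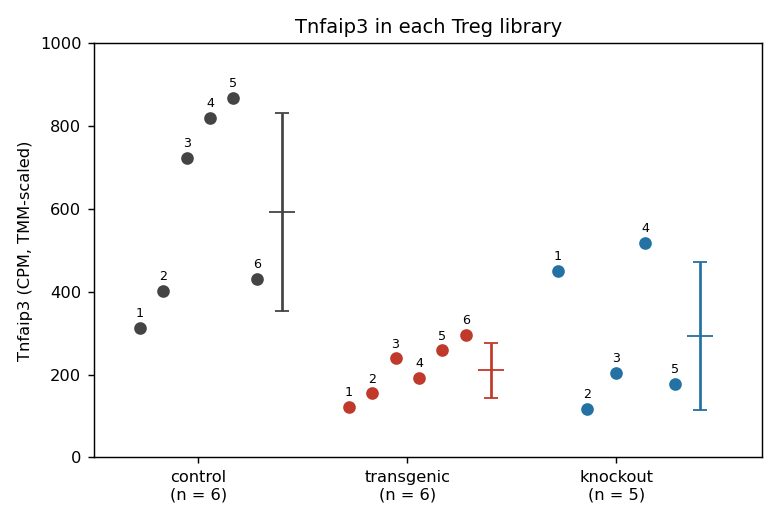
Tnfaip3 in each library (y axis, CPM after TMM scaling) by group, with the replicate number above each point and the group mean ± SD beside the points. All 6 transgenic libraries lie below all 6 control libraries, and the 5 knockout libraries spread over both ranges.

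The mean level of Tnfaip3 was 592.8 ± 238.9 CPM (SD, n = 6) in control, 293.2 ± 178.8 CPM (SD, n = 5) in knockout and 210.5 ± 65.78 CPM (SD, n = 6) in transgenic libraries. By this order the control group was highest and the transgenic group lowest, but the knockout group overlapped both of its neighbours. The fitted difference of transgenic from control libraries was -1.49 on the log2 scale (SE 0.33), a 2.81-fold lower level. Knockout libraries were 2.02-fold below control libraries (log2 difference -1.01, SE 0.34), and transgenic libraries 1.39-fold below knockout libraries (log2 difference -0.48, SE 0.34). The transgenic and knockout differences are both taken from the same 6 control libraries.

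Tnfaip3 varied more within groups than most rows. Its highest library exceeded its lowest 2.78-fold among controls, 2.42-fold among transgenic and 4.44-fold among knockout libraries. The pooled within-group SD of its log2 CPM was 0.677, higher than that of 94.7% of the 6969 rows that averaged 3 or more in log2 CPM, for which the median was 0.306 and the 90th percentile 0.562. Its biological coefficient of variation in the edgeR fit was 0.385, against 0.241 in common over all rows.

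Library measures that moved with the level of Tnfaip3 in the knockout group included the number of rows detected, the mitochondrial share and the TMM factor. Knockout replicates 2, 3 and 5, the 3 low ones for Tnfaip3, had 13476 to 13802 rows above 0, against 15039 to 17379 in all other libraries. They also had the highest mitochondrial shares, 25.31 to 28.16% of counts, against 19.66 to 24.81% elsewhere. Their TMM factors were 0.8642, 0.9514 and 0.8593, against 1.059 and 1.041 in knockout replicates 1 and 4. Without these 3 libraries the knockout difference of Tnfaip3 from control was -0.29 (SE 0.32) in place of -1.01, and the transgenic difference from knockout was -1.19 (SE 0.30) in place of -0.48. The transgenic difference from control stayed at -1.48. Leaving these libraries out, like every other choice in this and the next 4 paragraphs, was made after the data had been seen.

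Among transgenic libraries, Tnfaip3 was lower where the mitochondrial share was higher, in the exact inverse order of the 6 libraries (Pearson's r -0.963, Spearman's rho -1.0). Without the 2 libraries farthest from the median share r was -0.889. Among control libraries the same relation had r -0.77 and rho -0.771, and the 3 highest controls for Tnfaip3 had shares of 20 to 20.37%. These are descriptions with no test, since the row was chosen by the same values, and they are taken from 10 relations looked at, of 5 library measures in the 2 groups of 6 libraries. Among the others, r was 0.781 in control and 0.817 in transgenic libraries for the TMM factor, and -0.777 and -0.812 for total count. In the same order it was -0.34 and 0.327 for rows detected, and 0.69 and 0.844 for a far-to-near balance described below. Without the 2 libraries farthest from the median of each measure, r was 0.922 and -0.21 for the TMM factor, and -0.563 and -0.561 for total count. It was then 0.839 and 0.327 for rows detected, and 0.67 and -0.558 for the balance. The relation with the balance in transgenic libraries thus changed sign without 2 libraries. The 5 knockout libraries and all libraries together were looked at too. With the mitochondrial share as a covariate, the transgenic difference of Tnfaip3 from control was -1.41, the knockout difference from control -0.18 (SE 0.22) and the transgenic difference from knockout -1.22 (SE 0.22).

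The 3 controls with the highest Tnfaip3 also differed from the other libraries in their sample numbers. The columns of the deposited table carry numbers of 10198 to 10207 for the transgenic group and control replicates 1 and 2, 10728 for control replicate 6, 10761 to 10765 for the knockout group and 10863 to 10865 for control replicates 3, 4 and 5. What these numbers record is not established, and the labels give every library 1 batch date. Without control replicates 3, 4 and 5 the transgenic difference of Tnfaip3 from control was -0.87 (SE 0.36) in place of -1.49, and the knockout difference was -0.38 (SE 0.38) in place of -1.01. In the number range of the transgenic group alone, 6 transgenic libraries against control replicates 1 and 2, the difference was -0.76 (SE 0.25). The direction was the same in both, and the size of the difference and these sample numbers cannot be told apart.

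The place that the row reads within the transcript was examined as well, in rows tied to their gene. A row was counted as tied where its exons, moved by the common slope and its near values, lay on its own gene and clearly less on any other, or where no other gene was within reach. On the moved exons, the counted bases of Tnfaip3 lie 6.81 kb from the 3' end of a merged transcript of 7.23 kb (6.25 to 6.81 kb over 5 slopes), farther than in 81.2% of 666 tied rows. Likeness to Tnfaip3 across libraries, as r of deviations from the group means, rose with that distance across the 666 rows (rho 0.453). Its median in 5 equal groups of distance was -0.42, -0.278, 0.055, 0.436 and 0.542 from the nearest to the farthest. Of the 4 row properties compared this way, exon length gave rho 0.319, bases on the row's own exons -0.003 and relative distance 0.296, so distance in kb was taken because it was the largest. Genes are not independent replicates, and all these rows share the same 17 libraries.

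**Figure D3:**
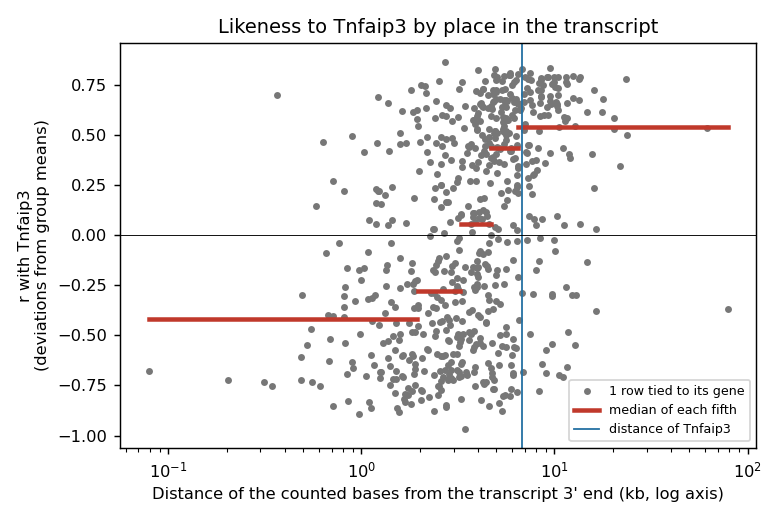
Each point is 1 of 666 rows tied to its gene, placed by the distance of its counted bases from the transcript 3' end (x axis, kb, logarithmic) and by its r with Tnfaip3 over 17 libraries after removal of group means (y axis). Red lines give the median of each of 5 equal groups, from -0.42 to 0.542, and the blue line marks Tnfaip3 at 6.81 kb.

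A far-to-near balance was then formed for each library. Since distance was taken for its relation with likeness to Tnfaip3, a low balance where Tnfaip3 is low partly restates that choice and is given as a description. The balance is the mean centred log2 CPM of the 133 tied rows farthest from the 3' end minus that of the 134 nearest. It was 0.087 to 0.253 in control libraries. It was below 0 in transgenic replicates 1 and 2 (-0.605 and -0.129) and in knockout replicates 2, 3 and 5 (-0.605, -0.325 and -0.635), the 2 and 3 libraries with the lowest Tnfaip3 of their groups. Transgenic replicates 3 to 6 had balances of 0.15 to 0.28, as high as controls, and Tnfaip3 was at 192.3 to 295.9 CPM in them, still below all controls. Without the 5 libraries below 0, the transgenic difference of Tnfaip3 from control was -1.26 and the knockout difference -0.29 (SE 0.26). With the balance as a covariate these were -1.22 (SE 0.18) and -0.48. The part of the balance in these differences was not tested beyond these values.

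**Figure D4:**
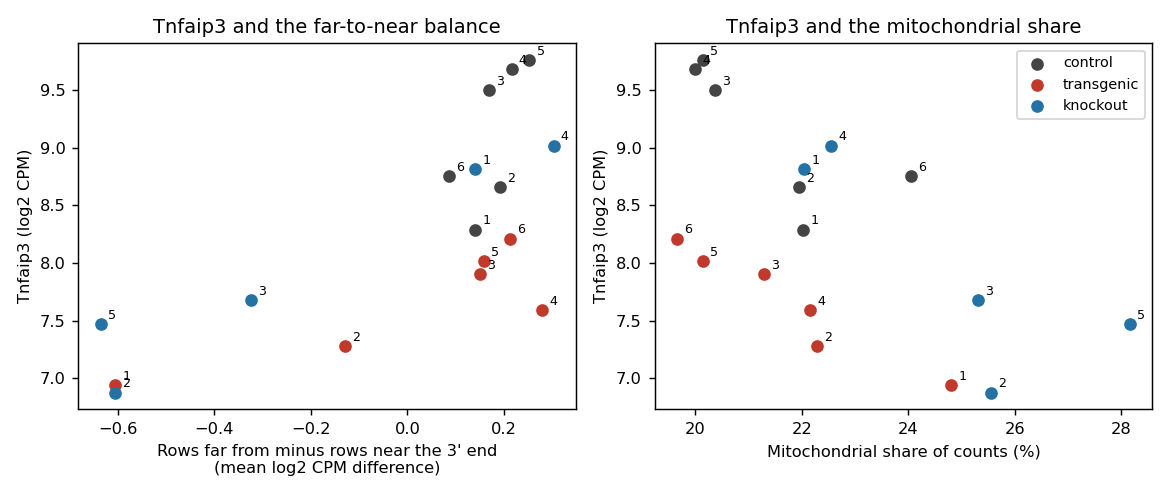
Tnfaip3 (y axis, log2 CPM) against the balance of rows far from and near the transcript 3' end (left, log2) and against the mitochondrial share of counts (right, %), 1 point per library with its replicate number. Knockout replicates 2, 3 and 5 and transgenic replicate 1 lie at low balance and low Tnfaip3, while transgenic replicates 3 to 6 lie below controls of like balance.

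Rows of other cell types were checked because the sort could hold other cells, and fewer cells of a type and less RNA per cell cannot be told apart in such samples. The summed level of 11 myeloid markers was 108 to 145 CPM in control, 125 to 174 in knockout and 177 to 234 in transgenic libraries, so the sum was higher in every transgenic library than in any control. Mpeg1 alone, an untied row, made most of that difference, at 63.0 ± 18.7 CPM (SD, n = 6) in control and 137.6 ± 23.2 (SD, n = 6) in transgenic libraries, a rise of 1.13 on the log2 scale (SE 0.17, adjusted p = 0.000135 by edgeR). Csf1r was at 16 and 11.5 CPM on average in the same groups, and Cd14 and Fcgr3 were called in no comparison. S100a8, S100a9 and Cst3 were at 0 in all libraries and Lyz2 at 0 to 1 count. For 10 B cell markers the sums were 218 to 303, 179 to 262 and 181 to 274 CPM in the same order of groups. The sums of 8 NK markers were at most 28.5 CPM, of 4 CD8 markers at most 19.6 and of 7 erythroid markers at most 0.87. The sum of 11 Treg markers was likewise higher in every transgenic library (1768 to 2246 CPM) than in any control (1551 to 1668). It was 1561 to 2151 CPM in knockout libraries. Of the Treg marker rows 9 were tested, and 2 were called higher in transgenic than in control libraries, 22.2%, where 7.4% of all rows were called. Foxp3 and Il2ra, at log2 differences of -0.12 and 0.09, were not among them. How often sums of other rows separate these groups was not counted. Most of these rows are not tied to their genes, so they measure cell types only in name, and their part in the level of Tnfaip3 was not tested.

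The rows whose pattern over all 17 libraries was most like that of Tnfaip3 were Khsrp (r 0.922), Men1 (0.904), Stk38 (0.898), Il6ra (0.897), Arhgef1 (0.896), Rab5b (0.892), Myo1g (0.891) and Slc15a2 (0.889), among 5668 rows compared. The median r was 0.002, and 95 rows had an r over 0.8. Of the 8, only Stk38, a protein kinase, and Myo1g, a myosin of blood cells, are tied to their genes, as are 13 of the 95. Stk38 ran from 192 to 259 CPM in control, 44.2 to 146 in transgenic and 45.6 to 213 in knockout libraries, like Tnfaip3 without overlap between control and transgenic libraries. Khsrp, Men1, Il6ra, Arhgef1, Rab5b and Myo1g did not overlap between these groups either, while Slc15a2 did. These 8 rows were picked for their likeness to Tnfaip3, which itself separates the 2 groups, so this partly restates the choice. The share of all rows without such overlap was not counted. After removal of group means the most alike rows were Fam186b (0.924), Dgcr2, Khsrp, Slc15a2, Iqgap3, Bsdc1, Dnaaf5 and Suox (0.869). By rank correlation 3 of the 8 rows most alike over all libraries were the same.

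The rows most opposite to Tnfaip3 were Trp53inp1 (r -0.95), Ncapd2 (-0.943) and Tlr1 (-0.933) over all libraries, and Trp53inp1 (-0.969), Pdcd4 (-0.944) and Il4ra (-0.898) after removal of group means. Trp53inp1, a stress-response gene induced by p53 and tied to its row, was at 1020 to 1410 CPM in control, 1380 to 1870 in transgenic and 1070 to 1750 in knockout libraries. Its high libraries were thus largely those where Tnfaip3 was low, within each group as well as between them.

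Of the NF-kB pathway, 86 genes in lists of inhibitors, activating machinery and targets were set beside Tnfaip3, of which 57 passed the filter on low counts and 11 of those are tied to their gene. The rows of the untied genes keep their names from the table without an established identity. In transgenic against control libraries 7 of the 57 were higher and 1 lower at an adjusted p under 0.05 by edgeR's quasi-likelihood test, 14% of them, where 7.4% of all 9986 rows tested were called (5.23% higher and 2.17% lower). Their median log2 difference was 0.02, against -0.01 over all rows and -1.49 for Tnfaip3.

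The list of 20 inhibitors holds IkB proteins, some of them of the nucleus, as well as genes that act on ubiquitin chains as A20 does. Of these 20, 14 were tested, with a median log2 difference of 0.02 between transgenic and control libraries. Rows that were not called went both ways. Tnip1 and Traf3 were at -0.82 (SE 0.28) and -0.885 (SE 0.33), and Nfkbie and N4bp1 at 0.62 (SE 0.28) and 0.68 (SE 0.23), all untied. Bcl3, an atypical IkB protein, rose by 1.25 with the transgene (SE 0.20, adjusted p = 0.000164 by edgeR), from 13.9 ± 3.64 CPM (SD, n = 6) in control to 33 ± 6.41 (SD, n = 6), and Nfkbid rose by 0.94 (SE 0.28, adjusted p = 0.0454), a call that ended in 16 of 29 alternatives. Neither row is tied. Cyld, another enzyme that removes ubiquitin chains from NF-kB signalling complexes, is the only tested inhibitor tied to its gene. It was at 85.7 to 105 CPM in control, 105 to 128 in transgenic and 79.9 to 126 in knockout libraries, opposite to Tnfaip3 over libraries (r -0.848), with a log2 difference of 0.29 (SE 0.11, adjusted p = 0.11 by edgeR) between transgenic and control libraries.

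Of the activating machinery 26 of 36 genes were tested and 7 of those are tied. Birc2, a ubiquitin ligase of receptor complexes and tied to its row, rose by 0.42 with the transgene (SE 0.12, adjusted p = 0.0299 by edgeR), and Relb, an NF-kB subunit, rose by 0.44. These calls ended in 11 and 13 of 29 alternatives. Prkcq, the kinase PKC-theta that links the T cell receptor to NF-kB, fell by 0.47. The tied rows Rela and Ikbkb, the subunit p65 and the kinase IKK-beta, had transgenic log2 differences from control of 0.02 (SE 0.10) and -0.17 (SE 0.10), and neither passed the test. Rel, the subunit c-Rel that acts in Treg development, followed Tnfaip3 within groups (r 0.83, tied) but had a log2 difference of 0.05 (SE 0.26) between these groups. The counted bases of Rel lie 6.77 kb from the 3' end, in the farthest of the distance groups, where the median r within groups was 0.542. Ikbkb, in the same distance group, had r 0.79 within groups.

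Of the targets 17 of 30 were tested and 3 of those are tied. Cd83, a surface molecule of activated cells, rose by 1.25 with the transgene (SE 0.16, adjusted p = 1.31e-05 by edgeR), Tnfsf8, the ligand of CD30, rose by 0.54 and Cflar, an inhibitor of cell death, rose by 0.35, all in untied rows. The Cflar call ended in 8 of 29 alternatives, and that of Cd83 in 0. Traf1, a tied target that encodes a signalling adaptor, was at 160 to 200 CPM in control and 185 to 213 in transgenic libraries, with a log2 difference of 0.14 (SE 0.10), where that of Tnfaip3 was -1.49. Without control replicates 3, 4 and 5, the high ones for Tnfaip3, only 2 pathway rows remained called, Bcl3 and Cd83, where 2.34% of all rows were called.

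In knockout against control libraries 0 of the 57 pathway rows passed, where 1.89% of all rows did (0.881% higher and 1.01% lower). At an unadjusted p under 0.05 there were 16, where 22.4% of all rows were under it. At the adjusted threshold DESeq2 called 6, where it called 5.74% of all rows, and limma-voom 0, where it called 1.35%. The median log2 difference was -0.09, against -0.02 over all rows and -1.01 for Tnfaip3.

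In transgenic against knockout libraries 9 of the 57 were higher and 3 lower, 21.1%, where 10.7% of all rows were called (6.34% higher and 4.33% lower). Bcl3, N4bp1, Birc2, Rbck1, Cd83, Irf4, Ccr7, Tnfsf8 and Stx11 rose, and Nfkbiz, Prkcq and Bcl2 fell. Of these Birc2, Irf4 and Stx11 are tied to their genes. The calls of Bcl2, Stx11 and Nfkbiz ended in 20, 15 and 13 of 28 alternatives. Irf4, a transcription factor of effector Tregs, rose by 0.66 (SE 0.17, adjusted p = 0.015 by edgeR), while the log2 difference of Tnfaip3 was -0.48.

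The immediate-early genes, a set of 33 fast-response genes that includes Fos and Egr1, gave little to compare with Tnfaip3. Of these 14 had under 3 counts in every library and 8 were tested, 2 of them tied. Klf6, a transcription factor and a tied row, fell in transgenic libraries by 0.64 against control (SE 0.14, adjusted p = 0.00552) and by 0.70 against knockout (SE 0.15, adjusted p = 0.00315, both by edgeR), and was the only 1 of the 8 called in either comparison, 12.5%, near the 7.4% and 10.7% of all rows called. It was at 855 to 1314 CPM in control, 558 to 954 in transgenic and 963 to 1372 in knockout libraries, so its knockout libraries lay within or above the control range, where 3 of the 5 lay below it for Tnfaip3. Without control replicates 3, 4 and 5 its transgenic difference from control was -0.42 (adjusted p = 0.283 by edgeR). In knockout against control libraries 0 of the 8 passed by edgeR, DESeq2 or limma-voom, and 1 was under an unadjusted p of 0.05. Ier5 and Hspa1b, the next most abundant, were called in no comparison.

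**Figure D5:**
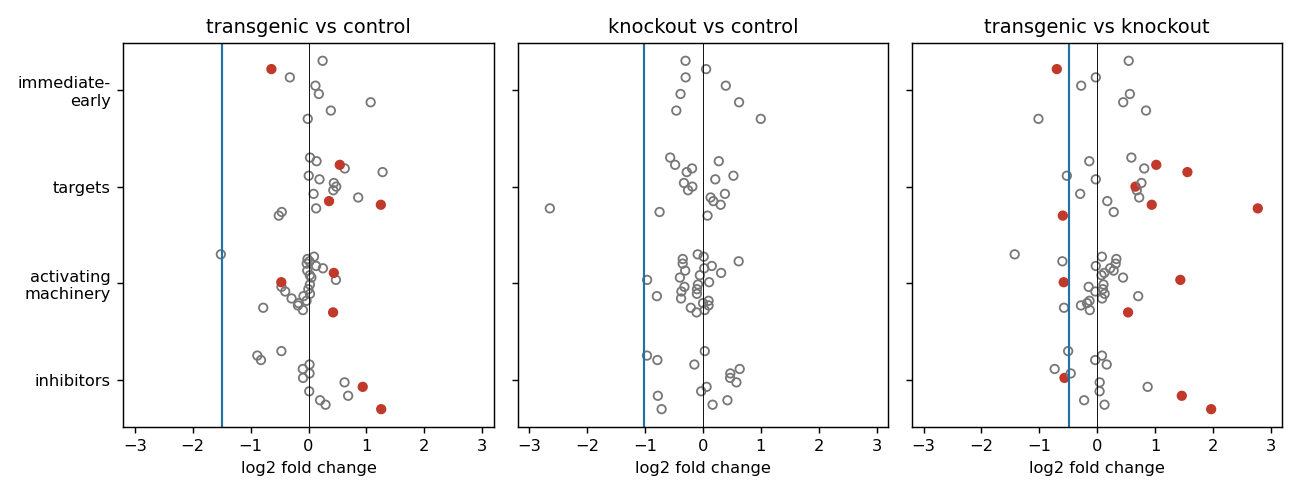
Log2 fold change (x axis) of each tested row of 4 gene lists (y axis) in the 3 comparisons, filled red where edgeR's adjusted p was under 0.05 and open where it was not, with Tnfaip3 as a blue line. Tnfaip3, at -1.49, lies below nearly all listed rows in transgenic against control libraries.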

How the data were processed

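The authors deposited 1 table of expected counts per gene for 17 libraries, of which 5.87% of values are not whole. Per the labels' protocols, polyA RNA was read at 67 bp with a 9 bp molecular identifier, at about 27 M reads per library. Alignment to GRCm38 used Bowtie2 and Ensembl 102 transcripts, and edgeR was used for testing, per the labels' protocols and the submitters' processing notes. No source used here says whether identifiers removed duplicates, so counting errors cover counting only.

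Counts were rounded and fitted with edgeR 4.0.16 (R 4.3.3; TMM, filterByExpr, quasi-likelihood F test, all libraries in 1 fit, Benjamini-Hochberg over 9986 rows, threshold 0.05). Log2 CPM used a prior count of 2. On simulated data for transgenic against control (9986 rows), changes were given to a small part of the rows, all above a floor of expected count. The fit recovered 100% of the rows given a log2 change of 2 and 72% of those given 1, with 9 false calls. The simulation held no trend between libraries such as those of the mitochondrial share or the balance.

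Tnfaip3, the gene lists and the tests were chosen with earlier results of these data known. The row shift, ties, distance groups, balance and library measures were chosen after the data had been seen. Named rows were Tnfaip3, Foxp3, Nfkbid, the 8 most and 3 least alike rows by each r (average log2 CPM of at least 3, without predicted, clone-named and receptor-segment rows), called list members and, for lists with under 3 called, the 3 most abundant. Cyld, Rela, Ikbkb, Rel and Traf1 were added because they are tied, and Tnip1, Traf3 and Nfkbie as uncalled inhibitors of both directions. Alternatives were RLE scaling, no filter, DESeq2 1.42.0, voom in limma 3.58.1, fitting only the 2 groups compared, a replicate block, leaving out each library, and 6 added after seeing the data.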

Additional observations from a re-analysis of the deposited data

Results flagged for a closer look

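In 63 groups of values examined, 2 single libraries stood apart from the rest of their group, where chance sets apart about 1 in 20 groups. The total of control replicate 1 was 4726615 counts, above the other 5 control libraries, and this library had the lowest Tnfaip3 of its group. Nfkbiz, an atypical IkB protein whose row is not tied to its gene, was at 252 CPM in transgenic replicate 1, the library with the lowest Tnfaip3 of its group. Tnfaip3 itself had no such library in any group.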

How the results depend on the processing

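The difference of Tnfaip3 kept its direction in all 3 comparisons under every alternative run. Leaving out each library in turn gave -1.62 to -1.35 for transgenic against control, -1.32 to -0.81 for knockout against control and -0.68 to -0.17 for transgenic against knockout. It moved by more than its within-group SD in 4 added alternatives, to -0.76 in the number range of the transgenic group, to -0.29, -0.29 and -0.18 for knockout against control without the 3 knockout libraries of fewer rows, without libraries of a balance below 0 and with the mitochondrial share as covariate, and to -1.19 and -1.22 for transgenic against knockout without the knockout libraries of fewer rows and with the mitochondrial share.

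Pathway rows called in transgenic against control libraries, 8 in the reported fit, numbered 13 by DESeq2, 18 with only the 2 groups, 17 without the knockout libraries of fewer rows, 15 without low-balance libraries, 15 with balance and 13 with the mitochondrial share as covariate, 2 in the transgenic number range and 2 without the 3 highest-numbered controls. The share of all rows called, 7.4% as reported, moved with them, to 9.51, 13.3, 12.4, 12.7, 14, 11.2, 2.5 and 2.34% in the same order. Leaving out each library gave 4 to 12, with 4 or 5 without transgenic replicate 3, 4, 5 or 6 or control replicate 3, 5 or 6. The share of all rows called ran from 5.34 to 8.59% over these. In knockout against control the 0 became 3 without a filter, 6 by DESeq2, and 1, 4, 3 and 2 in the first 4 added alternatives. The shares of all rows called in these were 2.25, 5.74, 0.397, 0.986, 1.28 and 0.541% in the same order. When each library was left out, 0 to 8 were called. The 8 came without knockout replicate 4 and 6 without replicate 1, its 2 libraries highest in Tnfaip3, where 11.1 and 7.92% of all rows were called, against 1.89%. In transgenic against knockout leaving out each library gave 9 to 17, against 12. The share of all rows called then ran from 7.44 to 16.5%, against 10.7%. Immediate-early calls in transgenic against control, 1 as reported, were 2 without a filter, by DESeq2, with only the 2 groups and in the first 4 added alternatives, 0 in the last 2 and 1 to 2 with each library left out. Without a filter 3% of all rows were called, and the other shares for this comparison are given above. In transgenic against knockout immediate-early calls were 2 by DESeq2, 0 without the knockout libraries of fewer rows and 1 to 3 with each library left out. DESeq2 called 13.8% of all rows there, and 7.34% were called without the knockout libraries of fewer rows. The cause of these changes was not tested.

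The replicate numbers were not used to pair the libraries. Same-numbered libraries had correlations of -0.517 to 0.364 in their deviations from group means. Differently numbered libraries were not compared, so these values do not settle whether the numbers pair libraries. With a replicate block 4 pathway rows were called in transgenic against control, where 5.77% of all rows were called. Depth limits little for Tnfaip3, whose counting error was at most 5.31%. The filter on low counts left 29 of 86 pathway genes untested. Whether depth or the shift of the rows made their counts low was not tested.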
